A study of Canis lupus familiaris with 8 samples.

Results

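The miRNAs of the imprinted DLK1-DIO3 locus were examined in canine mammary tumour cells. Members were chosen by name alone: 40 miRNA numbers assigned to the locus were searched among the array's names, with any letter or arm suffix, and no measured value entered this rule, although the locus was chosen with earlier results of these data known. The rule found 36 of the 454 dog miRNAs on the array. For 8 of the 40 numbers no entry was found (miR-154, miR-412, miR-431, miR-541, miR-654, miR-655, miR-656 and miR-668), and these are not analysed here. In the RefSeq gene table of the assembly UU_Cfam_GSD_1.0, 35 of the 36 members had an entry, and all 35 lay between DLK1 and DIO3. The remaining member, miR-369, had no match by name in that table.

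Star CSC were the CD44+, CD24-/low and ALDH+ cells sorted by flow cytometry from CMT-Star, with a label of doxorubicin treatment. Star parent was the unsorted CMT-Star line, which carried the same treatment label and had been derived from CMT-Stylo by rising doxorubicin exposure over several months, until it resisted 100 nM. Stylo CSC were cells of the same surface and enzyme phenotype sorted from CMT-Stylo, and Stylo parent was the unsorted CMT-Stylo line, both labelled as not treated. All 4 groups go back to 1 tumour cell line, grown in medium with 10% serum, and each group was labelled with 2 replicates. The labels do not say whether replicates were separate cultures, so p-values rest on a spread that may be purely technical. Total RNA was labelled with Cy3 and hybridised to 1-colour miRNA arrays.

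The scanner files of Stylo parent replicates 1 and 2 were identical and were counted as 1 sample, which left 7 arrays and no measured spread within Stylo parent. Stylo CSC replicate 1 was alone on slide 2, and the other 6 arrays were on slide 1. In the deposited value table, the columns of Stylo CSC replicate 1 and Stylo parent replicate 2 held other values than their scanner files: 420 and 417 of 475 entries followed the scanner totals (tolerance 0.01 on the log2 scale), against all 475 in each other column. Most entries that followed in these 2 columns were 0.1, the constant that the scanner software gives an undetected miRNA. It detected 1 member and 37 other miRNAs on Stylo CSC replicate 1, and 1 and 47 in the Stylo parent file. The counts of matching entries thus do not measure how many detected miRNAs kept their values. Results that rest on these arrays are therefore given 3 ways, from all 7 arrays, from the slide 1 arrays and from the value table. Between 4.19% and 8.78% of the spots on an array were well above background, and no spot was saturated. The small number of arrays limits the precision of every value.

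The DLK1-DIO3 locus is one of the imprinted regions of the mammalian genome. In human and mouse, the protein-coding genes DLK1, RTL1 and DIO3 are expressed from the paternal chromosome, and the long noncoding RNA MEG3 and the miRNAs from the maternal one. The miRNAs fall into a smaller group beside MEG3 and RTL1 and a long array of related hairpins that starts at miR-379, and they are known for expression in embryo, placenta and brain. A set of miRNAs transcribed against RTL1, miR-127 among them, directs cleavage of the RTL1 transcript in mouse.

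Of the whole cluster, miR-494 alone was clearly measurable on these arrays. A miRNA was counted as well above background on an array where the scanner software gave that flag to over 50% of the spots of any of its probes. By this measure 1 of 36 members (2.78%), miR-494, was detected on at least 1 array, and it was detected on 7 of 7. Among the 418 other miRNAs on the array 53 (12.7%) passed on at least 1 array, and 16 passed on every array. The software's own call per miRNA, which is more lenient, added miR-370 on Star CSC replicate 1, for 2 of 36 members (5.56%) against 75 of 418 others (17.9%). No test was made of these shares. In bulk RNA, a miRNA carried by fewer cells and one present at fewer copies per cell cannot be told apart.

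On the side of the locus next to RTL1, 7 members were measured: miR-493, miR-665, miR-433, miR-127, miR-432, miR-136 and miR-370. Of these, miR-433, miR-127, miR-432 and miR-136 lay within RTL1 in the RefSeq table. No member of this side was well above background on any array. The other side held 29 members: miR-379, miR-411, miR-299, miR-380, miR-323, miR-758, miR-329b, miR-329a, miR-494, miR-543, miR-495, miR-376a, miR-376c, miR-376b, miR-300, miR-381, miR-487b, miR-539, miR-889, miR-544, miR-487a, miR-382, miR-134, miR-485, miR-496, miR-377, miR-409, miR-410 and miR-369. Of these only miR-494 was well above background.

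**Figure D1:**
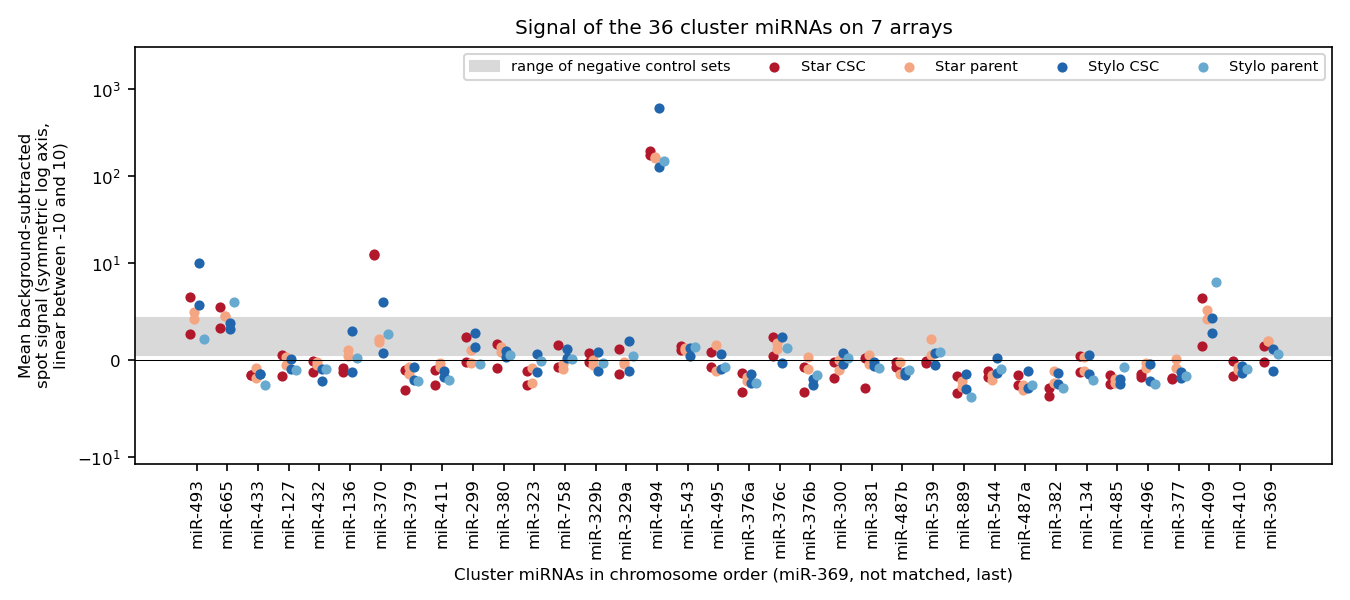
Mean background-subtracted spot signal (vertical symmetric log axis, scanner units, unscaled) of the 36 cluster miRNAs, placed along the horizontal axis in chromosome order with miR-369 last; each point is 1 array and its colour the group. The grey band spans the negative control sets of all arrays, from 0.484 to 4.38, and miR-494, at 125 to 607, stands apart from every other member.

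Each member was printed as 40 spots per array, through 2 to 4 probes (2 for 29 of the members). Spot signals here are background-subtracted by the scanner software, so a negative value means a spot dimmer than its estimated background. Against this scale, 33 of the 35 members not well above background had no single spot well above background on any array, and 30 of the 35 had a mean signal below 0 on at least 1 array. Their median signal was -0.0903 and -1.47 on the Star CSC arrays, -0.0482 and -0.430 on the Star parent arrays, 0.239 and -1.09 on the Stylo CSC arrays and -0.735 on the Stylo parent array. The array supplied its own comparison in 7 negative control sets with 1000 spots, whose lowest and highest set means were 0.484 and 4.38 over the arrays. None of the 35 dim members exceeded the highest negative control set of an array on every array, and 9 of the 365 dim other miRNAs (2.47%) did. On single arrays 2 to 4 of the 35 dim members did so (5.71% to 11.4%), against 4.66% to 14% of the dim other miRNAs. The negative controls were themselves brighter than most dim members: 25 to 32 of the 35 lay below even the lowest negative control set of an array. Staying below the highest set is therefore a weak mark, which does not show that a miRNA was absent.

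Members near miR-494 in the locus did not share its signal. By the RefSeq order its neighbours were miR-329a and miR-543. The mean spot signal of miR-329a was 1.17 and -1.47 in Star CSC, -0.191 and -0.408 in Star parent, 1.97 and -1.09 in Stylo CSC and 0.394 in Stylo parent. That of miR-543 was 1.07 and 1.41 in Star CSC, 1.19 and 1.08 in Star parent, 1.23 and 0.393 in Stylo CSC and 1.34 in Stylo parent. Both stayed below the highest negative control set on every array. miR-127, the member known for its action on RTL1, lay between -1.65 and 0.473. miR-134, known in rat neurons to restrain growth of dendritic spines, lay between -2.09 and 0.493, and miR-379, which opens the long array of hairpins, between -3.06 and -0.718. None of these 3 had a mean as high as the highest negative control set of any array. Most dim members stayed below that mark on each array, so it does not set the members of this paragraph apart from them.

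The members closest to detection were miR-370, miR-493, miR-409 and miR-665. These 4 were the dim members (4 of 35, 11.4%) in which over 50% of the spots were positive and significant against background, a weaker flag of the software, on at least 1 array. Among the 365 dim other miRNAs 51 (14%) met the same criterion. miR-409 and miR-665 had no spot well above background and were singled out after their values were seen.

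miR-370 was the dim member with the highest signal on any array. Its mean spot signal was 12.6 ± 5.10 and 12.3 ± 5.81 in Star CSC, 2.22 ± 3.71 and 1.87 ± 4.39 in Star parent, 5.98 ± 4.79 and 0.689 ± 3.60 in Stylo CSC and 2.66 ± 4.01 in Stylo parent (SD over spots). Before scaling, both Star CSC arrays lay above every other array. Divided by each array's 75th percentile of bright-probe signal, the scaling used for the comparisons, miR-370 was 0.0252 and 0.0273 in Star CSC, 0.00664 and 0.00591 in Star parent, 0.0283 and 0.00225 in Stylo CSC and 0.0122 in Stylo parent. After scaling the array of slide 2 was thus highest, and both Star CSC arrays still lay above both Star parent arrays. With or without scaling the Stylo CSC arrays lay on either side of Stylo parent. Of its spots, 39 of 40 and 33 of 39 were positive and significant in Star CSC, 10 of 39 and 11 of 38 in Star parent, 22 of 38 and 5 of 35 in Stylo CSC and 12 of 38 in Stylo parent. Before scaling both of its probes were highest in Star CSC: the brighter read 13.8 and 14.3 in Star CSC and at most 7.66 elsewhere, and the dimmer 11.4 and 10.3 in Star CSC and at most 4.47 elsewhere. After scaling the brighter probe was highest on Stylo CSC replicate 1, at 0.0362, against 0.0275 and 0.0315 in Star CSC. The dimmer probe was still highest in Star CSC after scaling, at 0.0228 on both arrays, against 0.0211 on Stylo CSC replicate 1. Each dim miRNA was checked for most spots being positive and significant on both CSC arrays, with a signal above every parent array. The criterion repeats the pattern just described for miR-370, so that miR-370 met it in Star is no added support. In Star 1 of the 35 dim members (2.86%), miR-370, met the criterion, as did 5 of the 365 dim other miRNAs (1.37%). In Stylo 0 of 35 dim members and 7 of 365 dim other miRNAs (1.92%) did. No test was made of these counts. Only 2 spots of miR-370, both on Star CSC replicate 1, were well above background, so it was not tested and no fold is given.

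In none of the 3 other members near detection did both Star CSC arrays lie above both Star parent arrays, with or without scaling. Unscaled, miR-493 read 6.54 and 2.66 in Star CSC, 4.23 and 4.91 in Star parent, 5.63 and 10.0 in Stylo CSC and 2.13 in Stylo parent, and 2 of its 267 spots were well above background. miR-409 read 6.42 and 1.43 in Star CSC, 4.21 and 5.17 in Star parent, 2.76 and 4.29 in Stylo CSC and 8.03 in Stylo parent. miR-665 read 5.44 and 3.33 in Star CSC, 4.58 and 4.57 in Star parent, 3.18 and 3.86 in Stylo CSC and 5.98 in Stylo parent. For miR-493 both Stylo CSC arrays lay above the Stylo parent array, and for miR-409 and miR-665 both lay below it, also after scaling. In Star the unscaled CSC arrays of each of these miRNAs lay on either side of both parent arrays, and scaling changed this. Scaled miR-665 was 0.0109 and 0.00735 in Star CSC, below the 0.0137 and 0.0145 of Star parent.

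**Figure D2:**
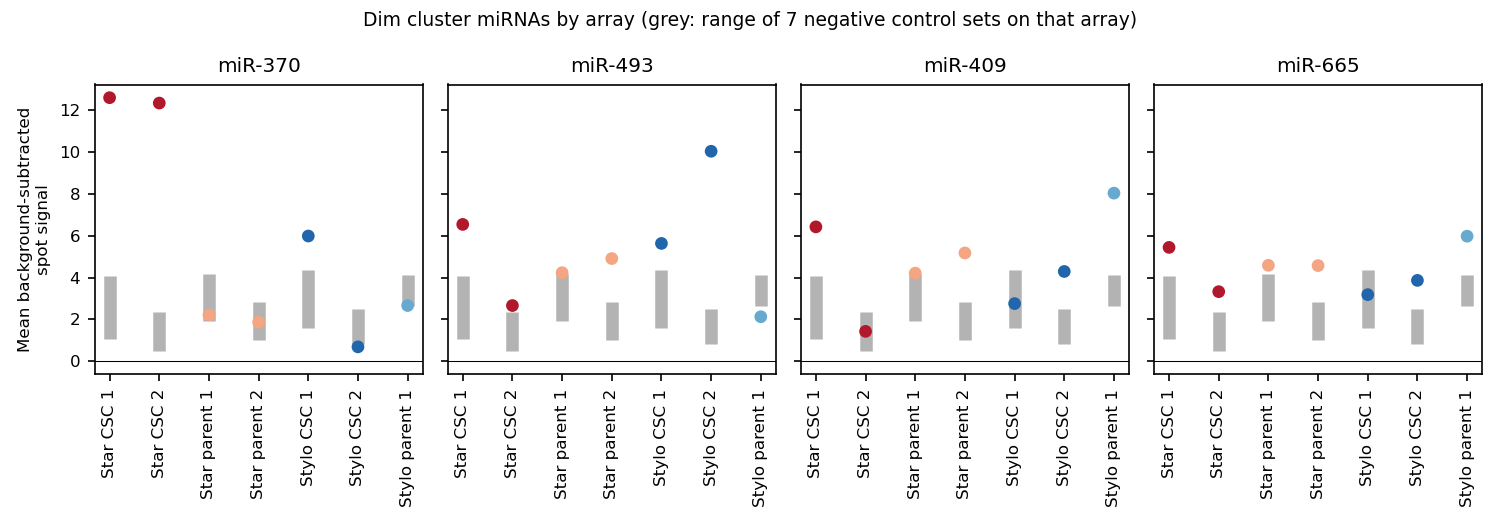
Mean background-subtracted spot signal (vertical axis, scanner units, unscaled, so that arrays differ in overall brightness) of miR-370, miR-493, miR-409 and miR-665 on each of the 7 arrays, with the range of the 7 negative control sets of that array as a grey bar. miR-370 is at 12.6 and 12.3 on the Star CSC arrays and at 5.98 or less on the others, and miR-493 is highest on a Stylo CSC array, at 10.0, and miR-409 and miR-665 on the Stylo parent array, at 8.03 and 5.98.

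miR-494 was measured by 2 probes, and 261 of its 261 spots were well above background. Its mean spot signal before scaling was 193 and 174 in Star CSC, 158 and 164 in Star parent, 607 and 125 in Stylo CSC and 149 in Stylo parent. The high value of 607 came from Stylo CSC replicate 1, the array on slide 2, and the other 6 arrays lay between 125 and 193. The 2 probes had the same pattern. The brighter probe read 265 ± 36.9 and 243 ± 48.8 in Star CSC, 229 ± 12.6 and 225 ± 22.5 in Star parent, 860 ± 85.6 and 181 ± 36.2 in Stylo CSC and 210 ± 18.0 in Stylo parent (SD over spots). The dimmer read 107 ± 7.40 and 102 ± 15.4 in Star CSC, 91.2 ± 8.0 and 92.7 ± 4.73 in Star parent, 368 ± 29.9 and 71.8 ± 12.7 in Stylo CSC and 84.1 ± 6.97 in Stylo parent. The value table did not hold the high value: its total for Stylo CSC replicate 1 was 76.2, against 347 for the same miRNA in that sample's scanner file.

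Before groups were compared, arrays were scaled by a brightness of their own, the 75th percentile among the 22 probes that passed the background flag throughout. It was 500.4 and 452 in Star CSC, 333 and 316 in Star parent, 212 and 307 in Stylo CSC and 219 in Stylo parent. The scaling thus acted most strongly on Star CSC, and it turned the order of the groups for miR-494. Scaled log2 signal was -0.42 and -0.39 in Star CSC, -0.06 and 0.01 in Star parent, 2.54 and -0.28 in Stylo CSC and 0.43 in Stylo parent. After scaling, both Star CSC arrays lay below both Star parent arrays, where before scaling they lay above them. In the value table the scaled log2 signal was -0.32 and -0.27 in Star CSC, 0.05 and 0.07 in Star parent, -0.01 and 0.01 in Stylo CSC, and 0.33 and 0.27 in Stylo parent.

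**Figure D3:**
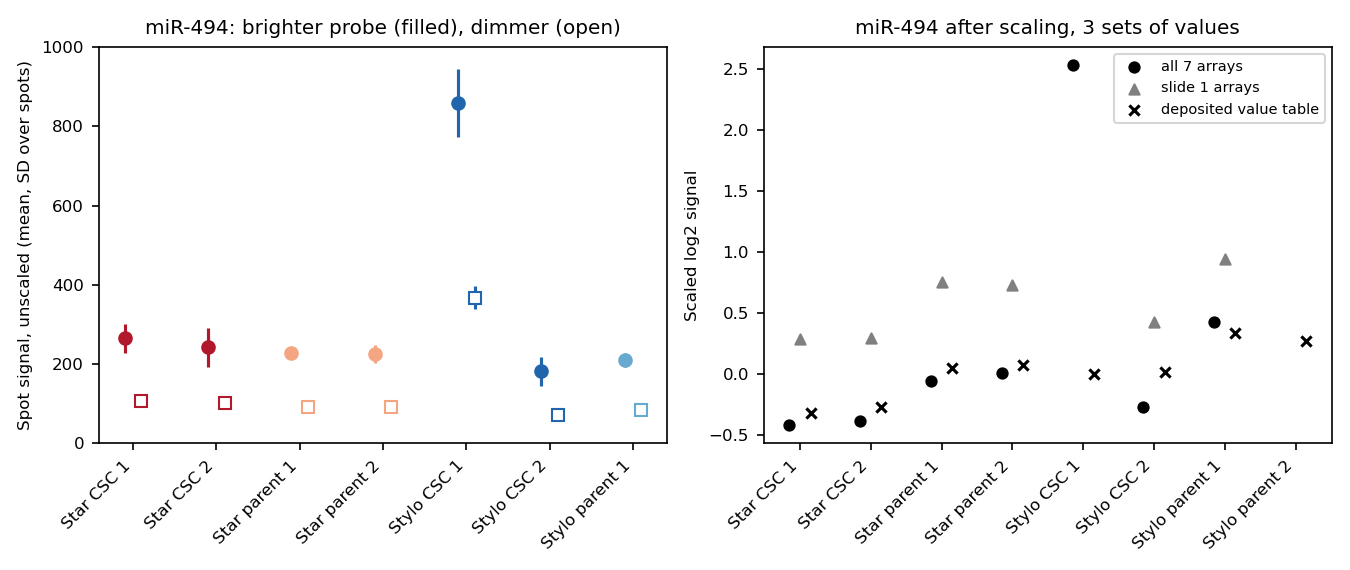
Left, unscaled spot signal of miR-494 (scanner units, linear axis from 0) on each array, mean with SD over spots, for the brighter probe (filled) and the dimmer probe (open). Right, scaled log2 signal per sample from all 7 arrays, from the slide 1 arrays and from the deposited value table; Stylo CSC 1 is at 2.54 from its scanner file and at -0.01 in the value table.

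Over all 7 arrays, no comparison placed miR-494 past the threshold of 0.05 on the adjusted p (limma, Benjamini-Hochberg over the 46 miRNAs tested, two-sided). It was the only member tested, and its unadjusted p in these 4 comparisons was 0.198 or more. Its log2 change was -0.45 ± 1.22 for Star parent against Stylo parent (SE, adjusted p = 0.892), in a comparison that called 2.17% of tested miRNAs. For Star CSC against Star parent the change was -0.38 ± 1.00 (adjusted p = 0.834, 2.17% called). For Stylo CSC against Stylo parent it was 0.70 ± 1.22 (adjusted p = 0.76, 2.17% called), and for Star CSC against Stylo CSC -1.54 ± 1.00 (adjusted p = 0.568, 6.52% called). The 95% intervals were wide, from -3.15 to 2.38 for Star CSC against Star parent and from -4.31 to 1.23 for Star CSC against Stylo CSC. The fit shares 1 spread among the groups, and the Stylo CSC arrays lay furthest apart, at a scaled log2 signal of 2.54 and -0.28. With only the Star groups in the fit, the change of -0.38 had an SE of 0.035. The wide interval for Star CSC against Star parent thus does not measure the spread of the Star arrays. The difference between the CSC changes of the 2 lines, Star minus Stylo, was -1.09 ± 1.58 (adjusted p = 0.714).

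The 2 Stylo CSC arrays pulled miR-494 in opposite directions. Without replicate 1, the array on slide 2, Stylo CSC lay below Stylo parent by a log2 change of -0.52. Without replicate 2, it lay above it by 2.11, and both values passed the threshold in limma (adjusted p = 0.00646 and 0.000335). Each of these rests on 1 Stylo CSC array against 1 Stylo parent array, with a spread borrowed from the Star groups. The share of miRNAs called in this comparison was 34.0% of 50 without replicate 1 and 68.1% of 47 without replicate 2. Without replicate 2, miR-494 passed in the other comparisons too, for Star parent against Stylo parent (68.1% called), Star CSC against Star parent (66.0%) and Star CSC against Stylo CSC (76.6%), as did the gap between the 2 CSC changes (70.2%). Slide 2 holds only Stylo CSC replicate 1, so the slide as a term in the fit takes up that array whole. The array still entered the scaling, the floor and the choice of miRNAs tested, so the values differ from those without it. Stylo CSC lay below Stylo parent by -0.70 with the slide term, against -0.52 without replicate 1. The fit with the slide term likewise leaves 1 Stylo CSC array against 1 Stylo parent array. In that fit miR-494 passed for Star parent against Stylo parent (69.6% called), Star CSC against Star parent (67.4%), Stylo CSC against Stylo parent (45.7%) and the difference (65.2%). Fitted on the compared groups alone, it passed for Star parent against Stylo parent (79.5% called) and Star CSC against Star parent (70.5%).

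On slide 1, scaled miR-494 was lower in Star CSC than in Star parent by a log2 change of -0.45 ± 0.02 (SE, 95% interval -0.52 to -0.39, limma adjusted p = 0.00568, 52.0% called), a direction that turned to 0.17 without scaling (adjusted p = 0.0898). In Star parent it was lower than in Stylo parent by -0.20 ± 0.02 (adjusted p = 0.021, 40.0% called), which turned to 0.12 without scaling. Stylo CSC against Stylo parent gave -0.52 ± 0.03 (34.0% called) and kept its sign without scaling, at -0.21 (adjusted p = 0.165). Star CSC against Stylo CSC gave -0.14 ± 0.02 (adjusted p = 0.0342, 46.0% called), and without scaling 0.50 (adjusted p = 0.0164, 62.0% called), so this comparison was called in both directions. The CSC changes of the 2 lines differed by 0.06, which did not pass (adjusted p = 0.237, 40.0% called).

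The value table gave the same signs for these 4 changes after scaling. The log2 change was -0.35 ± 0.06 for Star CSC against Star parent (limma adjusted p = 0.00614, 35.7% of 56 miRNAs called) and -0.25 ± 0.06 for Star parent against Stylo parent (adjusted p = 0.0324, 32.1% called). It was -0.30 ± 0.06 for Stylo CSC against Stylo parent (adjusted p = 0.0168, 30.4% called) and -0.30 ± 0.06 for Star CSC against Stylo CSC (adjusted p = 0.0221, 19.6% called). Without scaling it was 0.17, 0.09, -0.20 and 0.46 in that order, and of these the last passed (55.4% called). The CSC changes of the 2 lines differed by -0.05 after scaling (adjusted p = 0.743, 33.9% called). Of the table's 8 columns 6 follow the scanner files, so the sources are not independent. With 19.6% to 52.0% of the tested miRNAs called per comparison on slide 1 and in the value table, a call for miR-494 does not set it apart from the other miRNAs.

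**Figure D4:**
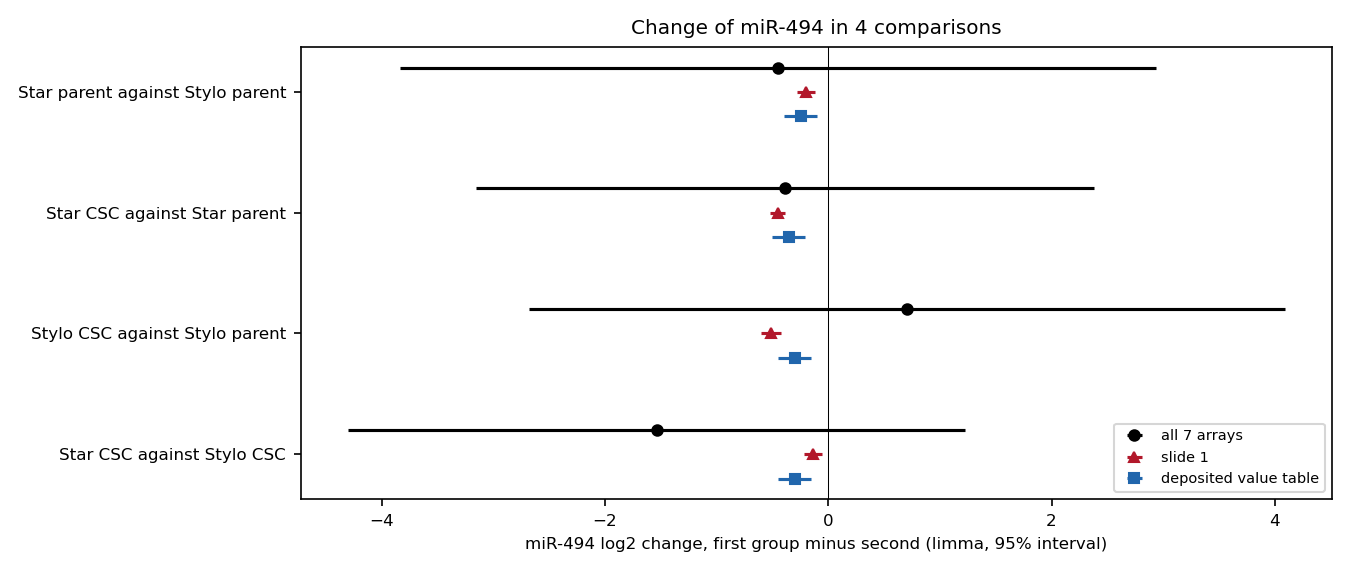
Log2 change of scaled miR-494 signal (horizontal axis, first group minus second) in 4 comparisons, with 95% intervals from limma, from all 7 arrays, the slide 1 arrays and the deposited value table. The 7-array intervals span 0 in all 4 comparisons, and Stylo CSC against Stylo parent is at 0.70 there, against -0.52 on slide 1 and -0.30 in the value table.

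The scaling moved the median log2 change of all tested miRNAs by over 0.1. Over the 7 arrays this median was 0 for Star CSC against Star parent and became 0.76 with scaling over all probes, and for the difference between the CSC changes it was 0.38 and became 1.49. miR-494 was therefore also read relative to that median. Except for quantile normalization, each scaling divides an array by 1 factor, which moves all its miRNAs alike apart from the floor. Similar differences from the median under these scalings were thus set by the calculation and are not repeated support. The sets of values also share their Star arrays. For Star CSC against Star parent the change of miR-494 lay below this median in each set of values and under each scaling tried. Its difference from the median was -0.38 to -0.34 over all 7 arrays, -0.45 to -0.27 on slide 1 and -0.44 to -0.39 in the value table. For Star parent against Stylo parent the same quantity ran from -0.28 to -0.06, from -0.23 to -0.03 and from -0.52 to -0.27. For Stylo CSC against Stylo parent it was 0.93 to 1.23 over all 7 arrays, against -0.52 to -0.35 on slide 1 and -0.30 to -0.26 in the value table. For Star CSC against Stylo CSC it was -1.85 to -1.43 over all 7 arrays, -0.15 to -0.04 on slide 1 and -0.41 to -0.32 in the value table. Each of these is a difference of log2 changes with no test of its own.

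The miRNAs most like miR-494 were sought among the 16 others well above background on every array, by Pearson's r of scaled log2 signal over the arrays. Over 7 arrays these were miR-8904b (r = 0.985, Spearman's rho = 0.679), miR-29a (r = 0.694, rho = 0.714) and miR-21 (r = 0.686, rho = 0.286). The likeness to miR-8904b rested largely on Stylo CSC replicate 1, where scaled log2 miR-8904b was 1.19, against -0.61 to -0.29 on the other arrays. On the 6 slide 1 arrays r was 0.748 for miR-8904b, 0.407 for miR-29a and -0.336 for miR-21, and miR-125b (0.940) and miR-331 (0.938) came first. Over all 7 arrays r was of the other sign for these last 2, at -0.361 for miR-125b and -0.869 for miR-331. The points share their arrays and scaling factors, and no p is given.

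The other lists are read against the whole array, on which 54 of 454 miRNAs (11.9%) were well above background on at least 1 array. Of the other imprinted loci, miR-335 from MEST and miR-483 from IGF2 were on the array, and neither was well above background on any array, though the software's own call detected miR-483. None of 8 epithelial markers (the miR-200 family, miR-205, miR-203 and miR-375) was well above background or called detected on any array, in a line labelled as mammary adenocarcinoma. Their summed scaled signal ran from 0.00166 to 0.0113 in Star CSC, 0.0108 to 0.0114 in Star parent and 0.0120 to 0.0155 in Stylo CSC, and was 0 in Stylo parent. In each list sum, a negative signal of a miRNA was counted as 0. Every epithelial sum lay below 0.0822, the floor set for a single miRNA, so these sums are not levels of expression. None of 5 mesenchymal and none of 8 muscle markers passed. Of 7 neural markers miR-138a passed, and of 8 haematopoietic ones miR-155 and miR-223 did, with miR-486 added by the software's call. No test was made of these counts, which are too small to set a list apart from the whole array. The summed scaled signal of the neural list was 0.0434 to 0.0712 in Star CSC, 0.0659 to 0.0779 in Star parent, 0.0825 to 0.204 in Stylo CSC and 0.0509 in Stylo parent. That of the haematopoietic list was 0.143 to 0.170 in Star CSC, 0.215 to 0.228 in Star parent, 0.237 to 0.347 in Stylo CSC and 0.445 in Stylo parent. The neural sums of Star CSC, Star parent and Stylo parent also lay below the floor of 0.0822. The part of these lists in the values of miR-494 was not tested.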

How the data were processed

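Spot intensities in the deposited scanner files were read and corrected for background in Agilent Feature Extraction 11.5.1.1, a version that the file headers and submitters' processing notes both give. The deposited table of processed values is on the log2 scale and carries the software's totals per miRNA, shifted by array and centred by miRNA. The labels do not state this; it was found by setting the table against the scanner files. The table was turned back to totals for use here.

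Outlier-flagged spots (3.84% to 9.15% per array) were left out, spots were averaged per probe, and the probes of a miRNA were summed. Arrays were scaled as the report describes, a common floor was set at 0.0822 (log2 -3.61), and log2 was taken. A miRNA was tested if it passed the background flag on all arrays of 1 or more groups, which 46 did. A single limma 3.58.1 fit in R 4.3.3 held the 4 group means (7 arrays, 3 residual degrees of freedom). The fit was run on simulated data with the same spread on every array and a shift in Star CSC alone. That check does not cover a group whose arrays lie far apart, as those of Stylo CSC did for miR-494.

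Every member is named. Members detected by either flag, the dim member miR-493, which had spots well above background, and the 3 miRNAs most like miR-494 are given with values. miR-409 and miR-665 had no such spot and were added after their values were seen. The locus, its members' name rule and the lists were chosen with earlier results of these data known. The normexp alternative used the median spot signal, since the files have no mean-signal column. Mature sequences were not used here, so no seed families were formed.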

Additional observations from a re-analysis of the deposited data

Results flagged for a closer look

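miR-370 had a mean spot signal of 12.6 on Star CSC replicate 1 and of 12.3 on Star CSC replicate 2, above the 0.689 to 5.98 of the other 5 arrays before scaling. After scaling it was 0.0252 and 0.0273 there, below the 0.0283 of Stylo CSC replicate 1 and above the 0.00225 to 0.0122 of the remaining arrays. It drew attention as a signal in a miRNA that no comparison used, since it stayed under the background filter on all of them. The highest negative control set was 4.10 and 2.35 on the 2 Star CSC arrays. The software's total for miR-370 was 3.89 on Star CSC replicate 1 and 0.1, its entry for an undetected miRNA, on every other array. Such a signal was not unique to miR-370. In Star 5 of the 365 dim other miRNAs (1.37%) also had most spots positive on both CSC arrays and lay above every parent array.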

How the results depend on the processing

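The count of cluster miRNAs past the threshold was 0 in each comparison over all 7 arrays, and it became 1, miR-494, under some of the 23 alternatives (22 for the difference between the CSC changes). It was 1 with the slide as a block for Star parent against Stylo parent, Star CSC against Star parent, Stylo CSC against Stylo parent and the difference. It was also 1 with only the compared groups in the fit for Star parent against Stylo parent and for Star CSC against Star parent, with the value table for all 4 comparisons, and without scaling in the value table or on slide 1 for Star CSC against Stylo CSC. Leaving out 1 array gave 0 to 1 in every comparison, and each 1 came from leaving out a Stylo CSC replicate. The detected members numbered 1, or 2 by the software's own call, and 1 under the 10 other alternatives.

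The direction of miR-494 turned as follows, with the cause not tested. For Star parent against Stylo parent (-0.45) it was 0.12 without scaling on 7 arrays and on slide 1, 0.0870 without scaling in the value table and 0.0021 with the replicate block. For Star CSC against Star parent (-0.38) it was 0.40 with scaling over all probes on 7 arrays and on slide 1, 0.17 without scaling in each set of values and 0.12 from the software's totals. For Stylo CSC against Stylo parent (0.70) it was -0.70 with the slide as a block, -0.30 in the value table, -0.20 there without scaling, -0.21 on slide 1 without scaling, -0.80 on slide 1 with scaling over all probes and -0.52 without replicate 1 of Stylo CSC. For Star CSC against Stylo CSC (-1.54) it was 0.46 and 0.50 without scaling in the value table and on slide 1, and 0.28 on slide 1 with scaling over all probes. The difference (-1.09) was 0.22 with scaling over all probes, 0.32 with the slide as a block, 0.37 and 0.38 without scaling in the value table and on slide 1, 1.20 on slide 1 with scaling over all probes and 0.0620 without replicate 1 of Stylo CSC.

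Over the fits that leave out 1 array, miR-494 ranged from -0.48 to -0.20 for Star parent against Stylo parent, from -0.45 to -0.35 for Star CSC against Star parent, from -0.52 to 2.11 for Stylo CSC against Stylo parent, from -2.95 to -0.14 for Star CSC against Stylo CSC and from -2.50 to 0.0620 for the difference. Apart from the -0.48 and -0.35, without replicate 2 of Star parent, these extremes came from leaving out a Stylo CSC replicate. The labels do not pair same-numbered samples, whose deviations correlated at -0.364, -0.0520 and -0.0300 over 46 miRNAs. With the replicate block limma called 0 of the 46 miRNAs in each comparison (5 to 10 at an unadjusted p under 0.05), against 0 to 3 without it, and no cluster member in either fit. With it, miR-494 changed by -0.38 for Star CSC against Star parent, 1.16 for Stylo CSC against Stylo parent and -1.54 for Star CSC against Stylo CSC. Leaving out the Stylo parent array could not be run for the comparisons that use it, since it is the only one. The settings without scaling on slide 1 and in the value table, and with scaling over all probes on slide 1, were chosen after seeing the data. Signal over background limits every statement on the 35 dim members.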
